A study of Homo sapiens with 6 samples.

Results

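The genes of the nuclear pore and of nuclear transport were followed in SW480 cells after 24 h with MPM-1 or its solvent. A gene was a member by its symbol alone. The symbol was NUP and a number, began with KPNA, KPNB, IPO or XPO, or was 1 of 16 named. The 16 were genes of the pore, of the Ran cycle and of nuclear transport. The rule found 58 of the 12982 genes in the table, 30 pore subunits and 28 transport factors. The filter on low counts removed no gene of the table, so all 58 were tested. SW480 is an established line of human colorectal adenocarcinoma cells, and MPM-1 is a fluorescent probe built to reach mitochondria. The study asked which transcripts the probe changes in these cells. Polyadenylated RNA was sequenced from 3 libraries of cells given DMSO and 3 libraries of cells given MPM-1, which the labels also call WT4. Both groups carried the same label for genotype, wild type, and were grown in DMEM. The dose of MPM-1 behind the RNA libraries is not given in the sources used here, and nothing in the labels says that the libraries came from separate cultures, so the p-values measure only the spread between these libraries, which may be technical. The cells are 1 established line, and in bulk RNA fewer cells of a type and less RNA per cell cannot be told apart.

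The nuclear pore is a ring of proteins set into the nuclear envelope. Y-shaped complexes form its outer rings, an inner ring holds the scaffold together, membrane-spanning subunits anchor it, and subunits rich in phenylalanine-glycine repeats fill its channel. Large cargo crosses with carriers: importin α reads the nuclear localization signal and rides on importin β, other members of the importin β family carry cargo by themselves, and exportins take proteins, tRNA or microRNA precursors out. The small GTPase RAN gives the direction, since its exchange factor RCC1 keeps it loaded with GTP in the nucleus and RANGAP1 lets it hydrolyse GTP at the cytoplasmic face.

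Short stretches of promoter are shown for 9 members, 5 lower members that share one motif and the 4 strongest changes for which a promoter sequence was on hand. The stretches were picked around some matches and leave out others in the same promoters. Promoters were the 250 bases before the RefSeq start in GRCh38.p14, found for 52 of the 58 members, with NUP43, KPNA4, KPNA5, KPNA7, KPNB1 and XPO7 left without one. A single start was used for each gene. Motifs were searched on both strands. The first stretches hold the core of the site of NRF1, a factor of mitochondrial and housekeeping promoters, GCGCATGC, whose reverse complement is GCATGCGC, so that a palindromic run counts as overlapping matches. Capitals mark that core.
NUP107, lower, chr12:68686884-68686913, plus strand: ggctgaagtcGCGCATGCGCtagatgggaa
NUP62, lower, chr19:49929544-49929573, minus strand: cgggcccagtGCGCATGCGCagccgcgcgc
NUP50, lower, chr22:45163859-45163888, plus strand: agggagctggGCGCATGCGCcgcgtaaggg
RCC1, lower, chr1:28505945-28505974, plus strand: ttctctaactGCGCATGCttctgcgcacgc
IPO11, lower, chr5:62412710-62412739, plus strand: tctgccggtcGCATGCGCgctggtctcctg

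In the next stretches capitals mark a CCAAT box (CCAAT or ATTGG), a CHR element of cell cycle promoters (TTTGAA or TTTAAA, read on either strand, so also TTCAAA) or an ETS site (CCGGAAG, also CTTCCGG).
KPNA2, lower, chr17:68035628-68035657, plus strand: acgtgtttTTCAAAtccaCCAATgggcaca
NUP35, lower, chr2:183124401-183124430, plus strand: cgccattTTTGAAaattaATTGGgaaggta
XPOT, higher, chr12:64404272-64404331, plus strand: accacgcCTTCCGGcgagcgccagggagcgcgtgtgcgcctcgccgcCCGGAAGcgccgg
NUP88, higher, chr17:5419734-5419763, minus strand: agCTTCCGGgccgtctgctcggtgATTGGc

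GENCODE release 29 starts some transcripts further upstream, so the printed stretches of NUP107, NUP62, NUP50, RCC1, IPO11, KPNA2, NUP35 and NUP88 lie in an untranslated exon of their own gene there, while that of XPOT lies outside any gene. The starts used for IPO11 and NUP35 lie 8791 and 6930 bases downstream of the GENCODE starts of these genes. The stretch of NUP88 also lies in an untranslated exon of RPAIN, a gene read from the opposite strand. Of the 25 lower members with a promoter, the NRF1 core was in 5 (20.0%), against 0 of 8 higher and 0 of 19 uncalled members, 4.93% of the promoters of tested genes and 2.81% of all promoters in the table. A CCAAT box was in 44.0% of lower, 37.5% of higher and 31.6% of uncalled members and in 35.1% of promoters of tested genes (33.0% of all). The CHR element was in 28.0% of lower members, 12.5% of higher members, 15.8% of uncalled members, 13.5% of promoters of tested genes and 22.1% of all. ETS sites were in 28.0% of lower members, 4 of 8 higher members and 31.6% of uncalled members, against 16.5% for tested genes and 8.82% for all. The E2F site (TTTCCCGC or TTTGGCGC) was in 0 of the 52 members and in 3.14% of promoters of tested genes and 1.96% of all. An amino acid response element (TGATGNAA), added to the search after the values were seen, was in NUP153 alone, against 1.24% of promoters of tested genes and 3.19% of all. A match is a run of letters and not a site shown to be bound, the motifs were picked with the calls known, and these shares carry no test.

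More of the members were lower than higher after MPM-1. By the quasi-likelihood test of edgeR, its p adjusted after Benjamini and Hochberg over the whole table, 35 of 58 members were called at an adjusted p under 0.05, 9 higher and 26 lower, which are 15.5% and 44.8% of the members. Of all 12982 genes, 56.5% were called, 27.7% higher and 28.8% lower. The median log2 fold change was -0.19 over the members and -0.03 over all genes, the members ranged from -1.08 to 1.28, and 40 of 58 fitted values were negative. The libraries of the groups did not overlap in CPM, counts per 1000000 counts of a library after TMM scaling, for 42 members, 11 higher and 31 lower, where 64.3% of all genes, 31% higher and 33.3% lower, were so separated. Past a stricter threshold, an adjusted p under 0.01 and a change of at least 1 on the log2 scale, lay 3 higher members, XPOT, KPNA4 and NUP88, and 2 lower members, NUP35 and KPNA2, against 5.58% of all genes higher and 8.75% lower. The balance of calls moved with the scaling, for members and for all genes together. When libraries were scaled by total count alone, 5 members were higher and 34 lower, with a median of -0.34 against -0.18 over all genes, and the share of higher calls went from 25.7% to 12.8% of called members and from 49% to 34.7% of called genes.

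**Figure D1:**
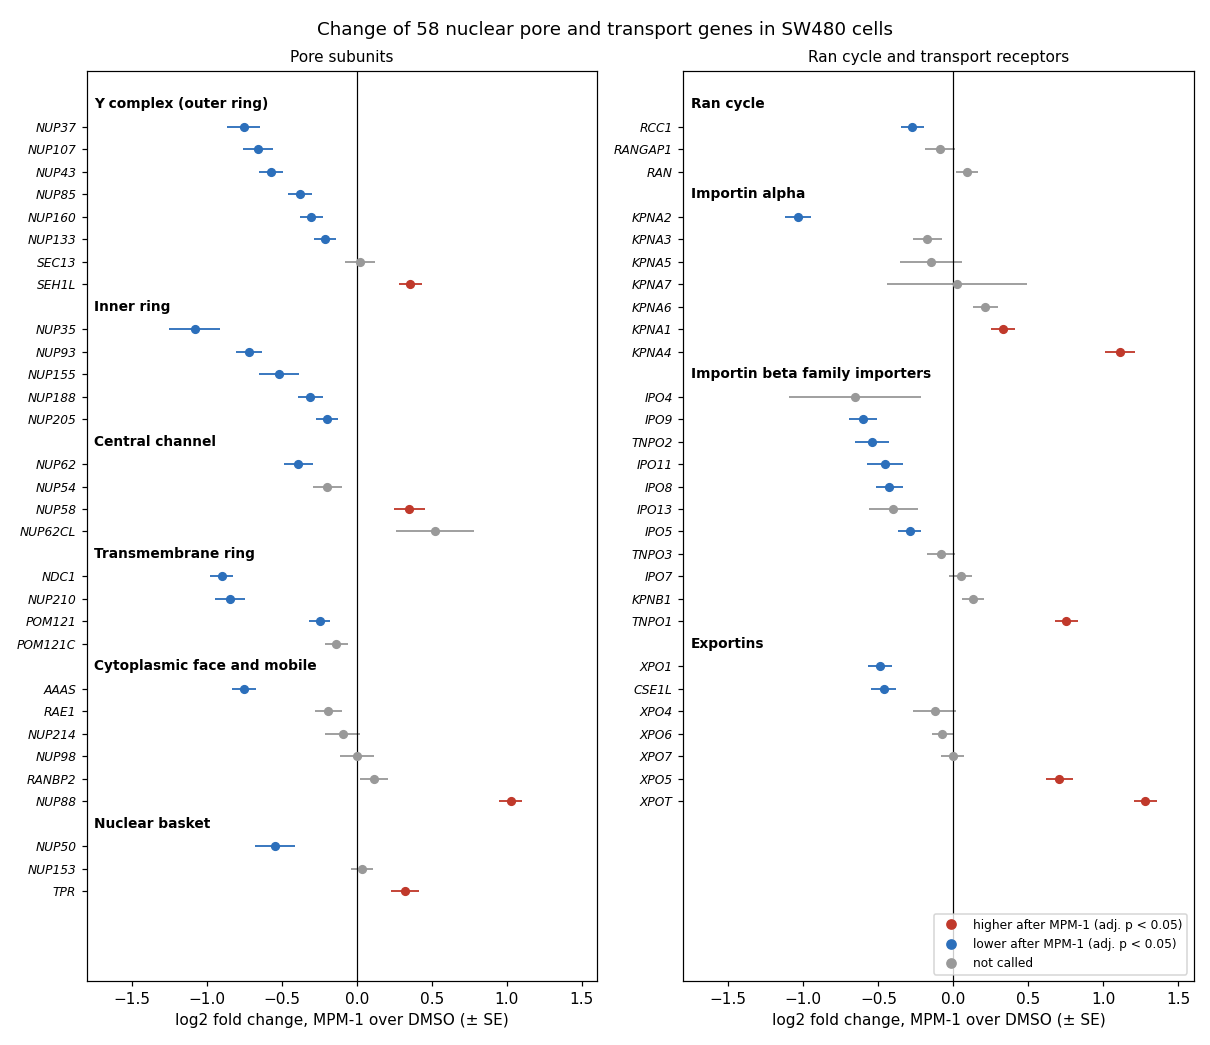
Log2 fold change of MPM-1 over DMSO for each of the 58 members by role, points with bars of 1 SE from edgeR, 3 libraries a group, red for called higher, blue for called lower and grey for not called. The inner ring and the transmembrane ring lie wholly left of 0, while XPOT, KPNA4 and NUP88 lie right of 1.

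The libraries held 31733667 to 40269820 counts each, so that 3 counts equal 0.0695 to 0.0985 CPM. That level is given for scale, was not used to filter genes and covers counting error only. The members took 0.597% to 0.619% of the counts in the DMSO libraries and 0.527% to 0.536% in the MPM-1 libraries. On the first principal component, with 72.79% of the variance, DMSO and MPM-1 libraries lay apart. All 9 epithelial markers were in the table, with a summed level of 8364 to 9748 CPM in DMSO and 12227 to 13761 CPM in MPM-1, most of it from the keratins KRT8, KRT18 and KRT19. The list was split, with CDH1, KRT8, KRT18 and KRT19 higher, the intestinal genes CDX2, KRT20, CDX1 and VIL1 lower with log2 fold changes of -2.20, -2.03, -0.98 and -0.88, and EPCAM not called. CDX2, a transcription factor of the intestinal epithelium, went from 82.5 to 17.9 CPM. Of markers of other cells, 2 of 6 fibroblast genes (summed level 4.79 to 5.47 CPM in DMSO and 2.00 to 2.89 CPM in MPM-1), 2 of 6 leukocyte genes (67.2 to 94.6 and 141 to 155 CPM) and 0 of 4 endothelial genes were in the table, and PTPRC, COL1A2 and PECAM1 were not. The leukocyte genes in the table went opposite ways, CD68, a lysosomal protein and most of the sum, from 68.3 to 145 CPM and CD14 from 9.38 to 3.70 CPM, both called. All 16 proliferation markers fell, and their summed level was 2079 to 2130 CPM in DMSO and 764 to 816 CPM in MPM-1. The part of these marker shifts in the levels of the members was not tested.

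The Y complex, the outer scaffold, had 6 lower members of 8, against 28.8% of all genes, with a median log2 fold change of -0.34. NUP37, on GRCh38 chromosome 12 at 102073103 to 102120124, had 62.6, 61.6 and 62.3 CPM in DMSO and 31.6, 43.2 and 35.6 CPM in MPM-1. All MPM-1 libraries lay below all DMSO libraries, and MPM-1 library 2 was the highest of its group. The log2 fold change was -0.75 ± 0.11 (SE), with an edgeR adjusted p of 0.000357. NUP107, which lends the complex its older name and lies on chromosome 12 at 68686734 to 68745809, had 51.5, 58.3 and 53.8 CPM in DMSO and 34.0, 38.8 and 31.0 CPM in MPM-1, again with no overlap. Its log2 fold change was -0.66 ± 0.10 (SE; edgeR adjusted p = 0.000454). NUP43, on chromosome 6 at 149724315 to 149749665, had 57.5, 63.9 and 59.6 CPM in DMSO and 42.0, 39.0 and 40.7 CPM in MPM-1, and all treated libraries were lower. Its log2 fold change was -0.57 ± 0.08 (SE; edgeR adjusted p = 0.000245). The other lower subunits were NUP85, NUP160 and NUP133, with log2 fold changes of -0.38, -0.30 and -0.21 and edgeR adjusted p of 0.00243, 0.00783 and 0.0329. The call of NUP133 was kept in only 2 of the 6 fits that left out 1 library. SEH1L, a subunit that this complex shares with the GATOR complex upstream of mTORC1, rose by 0.36 on the log2 scale. It went from 63.9, 72.4 and 69.2 CPM to 86.7, 90.3 and 86.1 CPM (edgeR adjusted p = 0.00321). That call was lost when libraries were scaled by total count alone. SEC13, which also coats COPII vesicles and was the most abundant of the 8 at 167 ± 19.7 FPKM (SD, n = 3; fragments per length of transcript and size of library) in DMSO, differed by 0.02 on the log2 scale and was not called.

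The inner ring, which joins the scaffold to the membrane and the channel, was lower in all 5 members, against 28.8% of all genes. Its median was -0.52 on the log2 scale. NUP35, also called NUP53, had the lowest log2 fold change of the members in edgeR, close to that of KPNA2, and lies on chromosome 2 at 183117513 to 183161680. Its level was 21.7, 21.9 and 23.5 CPM in DMSO and 8.67, 13.6 and 9.47 CPM in MPM-1. Each MPM-1 library was well under each DMSO library, though MPM-1 library 2 was nearer to them. The log2 fold change was -1.08 ± 0.17 (SE), a level 2.12 times lower, with an edgeR adjusted p of 0.000552. With limma on log2(FPKM + 1) KPNA2 was lower, at -1.17 against -1.14, and NUP35 was at -0.94 without MPM-1 library 1. NUP93, the hub of the inner ring, on chromosome 16 at 56730105 to 56850286, had 73.4, 75.4 and 66.5 CPM in DMSO and 47.6, 41.4 and 41.8 CPM in MPM-1. The groups were apart, with a log2 fold change of -0.72 ± 0.09 (SE; edgeR adjusted p = 0.000121). NUP155 had 45.5, 55.4 and 50.1 CPM in DMSO and 30.03, 42.5 and 32.9 CPM in MPM-1, a fall of 0.52 on the log2 scale (edgeR adjusted p = 0.00836). NUP188 and NUP205, the large paralogous scaffold subunits, had log2 fold changes of -0.31 and -0.20 with edgeR adjusted p of 0.0106 and 0.0384. The call of NUP205 was kept in only 1 of the 6 fits that left out 1 library, and that of NUP188 was lost without MPM-1 library 3. Added per length, the 5 subunits came to 67.7 ± 2.62 FPKM (SD, n = 3) in DMSO and 40.7 ± 2.05 FPKM in MPM-1. FPKM carries no TMM scaling, so it is not on the scale of CPM. The TMM factors were 1.03 to 1.07 in DMSO libraries and 0.930 to 0.969 in MPM-1 libraries.

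The transmembrane subunits anchor the pore in the envelope, and 3 of the 4 in the table fell, against 28.8% of all genes. NDC1, needed for pore assembly, lies on chromosome 1 at 53765460 to 53838860. It had 65.7, 68.6 and 70.6 CPM in DMSO and 36.8, 38.0 and 34.8 CPM in MPM-1. The libraries were tight within each group and far apart between them. Its log2 fold change was -0.90 ± 0.08 (SE), with an edgeR adjusted p of 1.39e-05. NUP210, also known as gp210, lies on chromosome 3 at 13316235 to 13420309, and its level was 96.6, 115 and 103 CPM in DMSO and 57.5, 52.5 and 65.3 CPM in MPM-1. No treated library reached a control library, and the log2 fold change was -0.84 ± 0.10 (SE; edgeR adjusted p = 0.000107). POM121 and POM121C are near-identical copies on chromosome 7, at 72879365 to 72951440 and at 75416787 to 75486271, and how the counting split reads between them is not given in the sources used here. POM121 had 63.6, 69.3 and 66.7 CPM in DMSO and 56.1, 55.6 and 56.3 CPM in MPM-1 (log2 fold change -0.25 ± 0.07 SE, edgeR adjusted p = 0.0149). POM121C had 48.2, 50.6 and 47.2 CPM in DMSO and 43.9, 43.9 and 45.2 CPM in MPM-1 (log2 fold change -0.14 ± 0.07 SE, edgeR adjusted p = 0.146). Both copies were lower in every MPM-1 library than in any DMSO library, but only the first was called, and its call was lost without DMSO library 2 (adjusted p = 0.0663) and without MPM-1 library 3 (adjusted p = 0.0559).

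The channel and the 2 faces of the pore were mixed. In the central channel, NUP62, its best known repeat subunit, fell by 0.39 on the log2 scale (edgeR adjusted p = 0.00664), while NUP58, its partner, rose by 0.35 (edgeR adjusted p = 0.0161), from 199, 185 and 177 CPM to 270, 206 and 237 CPM. The call of NUP58 was lost under total count scaling and without DMSO library 2 or 3. NUP54 and the paralogue NUP62CL were not called, at -0.20 and 0.52 on the log2 scale. NUP62 overlaps ATF5 on the opposite strand, whose level was 4.19 CPM in DMSO and 8.18 CPM in MPM-1, and the strand setting of the counting is not given in the sources used here. On its own strand NUP62 overlaps IL4I1 and AC011452.1, and what these genes add to its count was not tested.

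At the cytoplasmic face, NUP88 rose and AAAS fell. NUP88, which holds NUP214 and the export platform in place, lies on chromosome 17 at 5360963 to 5420160. Its level was 55.5, 58.7 and 57.99 CPM in DMSO and 116, 124 and 111 CPM in MPM-1. The groups were far apart, with a log2 fold change of 1.03 ± 0.08 (SE; edgeR adjusted p = 6.44e-06). In this fit NUP88 was the only pore subunit to at least double. The log2 fold change of NUP88 was 0.875 under total count scaling and 0.903 with limma on log2(FPKM + 1), called in both. It overlaps RPAIN, an importer of replication protein A read from the opposite strand, which rose by 0.65 on the log2 scale. What the shared exons add to the count of NUP88 was not tested. AAAS, or aladin, the gene behind triple A syndrome, on chromosome 12 at 53307456 to 53324864, had 49.6, 47.9 and 47.3 CPM in DMSO and 29.7, 27.2 and 29.1 CPM in MPM-1. Its libraries did not overlap, and its log2 fold change was -0.75 ± 0.08 (SE; edgeR adjusted p = 5.25e-05). NUP214, NUP98, RAE1 and RANBP2 were not called, with log2 fold changes of -0.09, -0.00, -0.19 and 0.11. RANBP2 has near-identical copies, and RGPD5, RGPD6 and RGPD8 were in the table, so that its count is uncertain. In the nuclear basket, NUP50, a cofactor of importin α, lies on chromosome 22 at 45163841 to 45188015 and had 536, 397 and 359 CPM in DMSO and 310, 297 and 278 CPM in MPM-1. DMSO library 1 stood above the other two controls, and all treated libraries were under all controls. The log2 fold change was -0.55 ± 0.13 (SE; edgeR adjusted p = 0.00633), and -0.36 without DMSO library 1, where the call was kept. TPR, the filament of the basket, rose by 0.32 (edgeR adjusted p = 0.0145), a call lost under total count scaling and without DMSO library 3. NUP153 was not called, at 0.03 on the log2 scale.

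**Figure D2:**
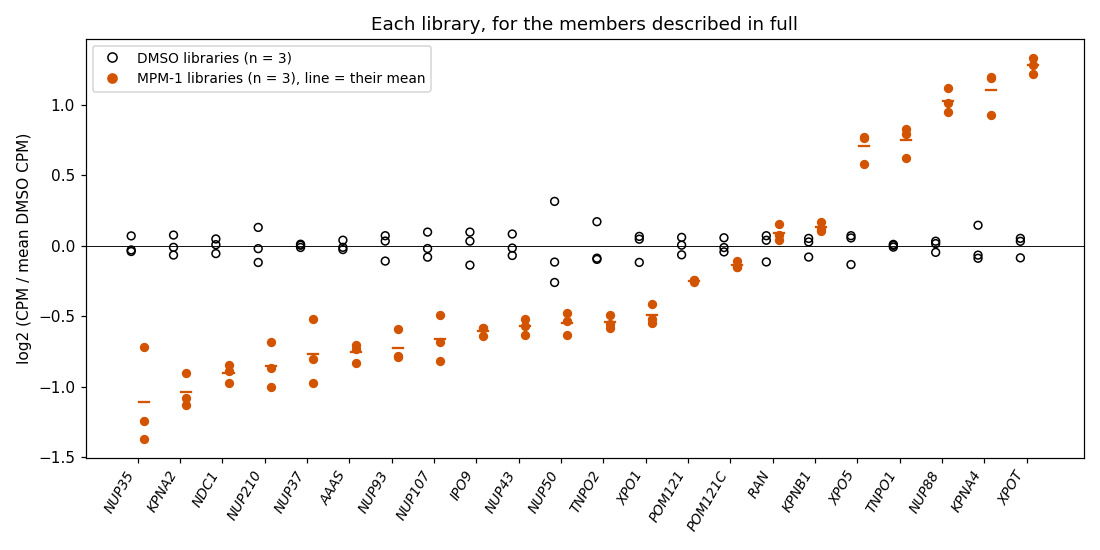
CPM of each library over the mean DMSO CPM on a log2 scale for 22 members, the open circles being DMSO libraries and the filled circles MPM-1 libraries (n = 3 each, short line at the mean). The open and filled circles are apart for every gene shown but RAN, and the wide DMSO spread of NUP50 comes from the library at 536 CPM.

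Of the 3 genes of the Ran cycle, which powers transport, 1 was called, against 56.5% of all genes. RAN was the most abundant member per length, at 246 ± 27.4 FPKM in DMSO and 247 ± 21.5 FPKM in MPM-1 (SD, n = 3). It had 550, 612 and 626 CPM in DMSO and 629, 663 and 613 CPM in MPM-1, and the groups overlapped. Its log2 fold change was 0.09 ± 0.07 (SE; edgeR adjusted p = 0.324), and its sign turned under total count scaling. RCC1, the nuclear exchange factor, fell by 0.27 on the log2 scale, from 150, 138 and 134 CPM to 115, 114 and 120 CPM (edgeR adjusted p = 0.011). RANGAP1, at -0.09, was not called.

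The importin α family, the adaptors that read the nuclear localization signal, held the most contrasting members. KPNA2, the adaptor common in dividing cells, on chromosome 17 at 68035519 to 68046842, had 276, 259 and 250 CPM in DMSO and 123, 140 and 120 CPM in MPM-1. Even the highest treated library lay far below the lowest control. The log2 fold change was -1.04 ± 0.08 (SE), a level 2.05 times lower, with an edgeR adjusted p of 1.1e-05. KPNA4, an adaptor known for carrying NF-κB, on chromosome 3 at 160494995 to 160565588, had 71.5, 60.8 and 61.7 CPM in DMSO and 148, 123 and 148 CPM in MPM-1. Here the order was the other way round, and every treated library was above every control. The log2 fold change was 1.11 ± 0.10 (SE), a level 2.16 times higher, with an edgeR adjusted p of 2.08e-05. For KPNA4 it was 0.959 under total count scaling and 0.869 with limma on log2(FPKM + 1), called in both. KPNA1 rose by 0.33, from 64.6, 58.7 and 60 CPM to 81.6, 74.2 and 74.6 CPM (edgeR adjusted p = 0.00547), a call lost under total count scaling. KPNA6 (0.21, edgeR adjusted p = 0.0552), KPNA3 (-0.17), KPNA5 (-0.15) and KPNA7 (0.02) were not called on the log2 scale.

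Per length, KPNA2 stood above the other adaptors in both groups, at 122 ± 4.09 FPKM in DMSO and 53.8 ± 5.47 FPKM in MPM-1 (SD, n = 3), and KPNA7 was the lowest member of all at 0.607 FPKM in DMSO. The family summed to 168 ± 5.32 FPKM in DMSO and 104 ± 3.28 FPKM in MPM-1, again without TMM scaling. KPNA2 made up 73.4%, 72.2% and 73.0% of that sum in the DMSO libraries and 49.4%, 55.7% and 49.5% in the MPM-1 libraries. KPNA4 made up 4.38% ± 0.249 in DMSO and 13.7% ± 1.6 in MPM-1 (SD, n = 3). The ratio of KPNA2 to KPNA4 was 15.9, 17.5 and 16.7 in DMSO and 3.44, 4.70 and 3.34 in MPM-1, and a ratio within a library does not depend on how libraries are scaled. These shares were picked after the values were seen, so an exact two-sided permutation test of them is no independent evidence; it gave p = 0.1 for both shares and the ratio, the smallest that 3 against 3 libraries allow, and 0.136 adjusted over 15 shares and ratios.

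**Figure D3:**
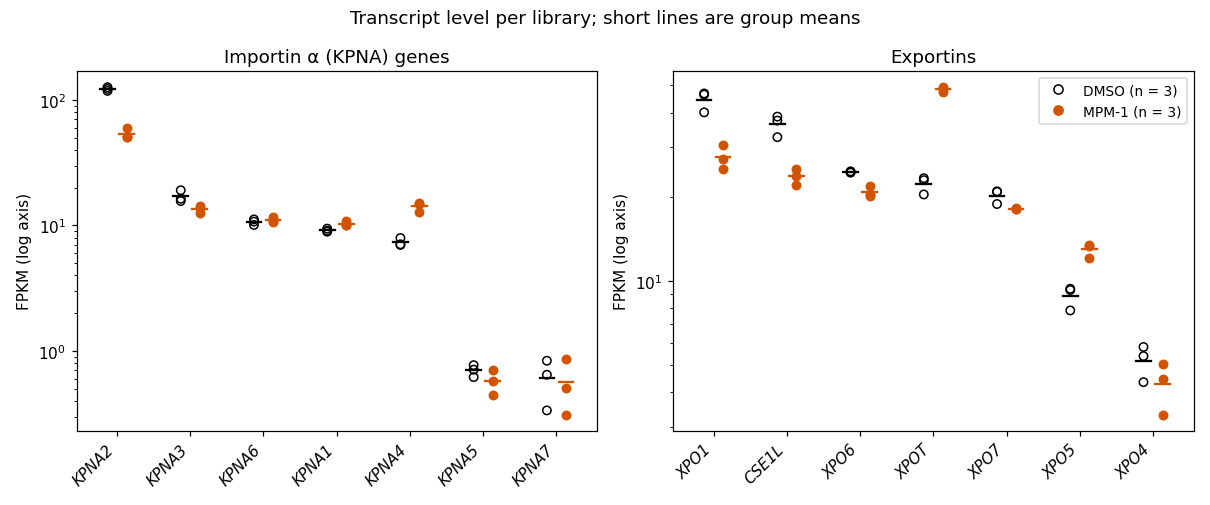
FPKM of each library on a log axis for the 7 importin α genes and the 7 exportins, open circles for DMSO and filled circles for MPM-1 (n = 3 each, short lines at group means). KPNA2 drops towards the other adaptors from 122 to 53.8 FPKM, and XPOT moves above XPO1, from 22.2 to 48.4 FPKM.

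Of the 11 importers of the importin β family, 5 fell and 1 rose, where 28.8% of all genes were lower and 27.7% higher. Their median was -0.40 on the log2 scale. TNPO1, or transportin, which carries PY-signal cargo such as hnRNP proteins, lies on chromosome 5 at 72816312 to 72916733 and had 207, 205 and 208 CPM in DMSO and 368, 319 and 359 CPM in MPM-1. The controls were nearly equal and all treated libraries higher, with a log2 fold change of 0.75 ± 0.08 (SE; edgeR adjusted p = 3.83e-05). Its paralogue TNPO2, on chromosome 19 at 12699194 to 12724011, went the other way, from 22.5, 26.95 and 22.4 CPM in DMSO to 17.1, 16.0 and 16.3 CPM in MPM-1. The groups were apart, with a log2 fold change of -0.54 ± 0.11 (SE; edgeR adjusted p = 0.00281). IPO9, a carrier of histones H2A and H2B on chromosome 1 at 201829141 to 201884294, had 33.3, 37.5 and 39.2 CPM in DMSO and 24.4, 24.4 and 23.5 CPM in MPM-1. All treated libraries were lower, and the log2 fold change was -0.60 ± 0.09 (SE; edgeR adjusted p = 0.00046). IPO11, IPO8 and IPO5 also fell, by 0.46, 0.43 and 0.29 on the log2 scale, with edgeR adjusted p of 0.00837, 0.0027 and 0.00841. IPO11 overlaps KIF2A and LRRC70 on its own strand, and what they add to its count was not tested. IPO5 was the most abundant importer at 54.9 ± 1.98 FPKM in DMSO and IPO9 the least at 3.27 ± 0.326 FPKM (SD, n = 3).

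KPNB1, importin β itself and the partner of the importin α adaptors, lies on chromosome 17 at 47649476 to 47685505. It had 152, 163 and 166 CPM in DMSO and 180, 174 and 172 CPM in MPM-1. The libraries did not overlap, yet the log2 fold change was 0.13 ± 0.07 (SE; edgeR adjusted p = 0.147), was not called, and was -0.02 under total count scaling. IPO13, with its libraries also apart, missed the threshold at -0.40 (edgeR adjusted p = 0.0639), and IPO7 and TNPO3, at 0.05 and -0.08, were not called. IPO4 had 22.6, 17.6 and 35.3 CPM in DMSO and 5.19, 20.3 and 22.4 CPM in MPM-1, and with so wide a spread its log2 fold change of -0.66 ± 0.44 (SE) was not called (edgeR adjusted p = 0.232).

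Among the 7 exportins, 2 rose and 2 fell, where 27.7% of all genes were higher and 28.8% lower. Their median was -0.08 on the log2 scale. XPOT, the exporter of tRNA, showed the largest rise of all members and lies on chromosome 12 at 64404350 to 64451127. It had 131, 142 and 144 CPM in DMSO and 350, 324 and 339 CPM in MPM-1. The lowest treated library was far above the highest control. The log2 fold change was 1.28 ± 0.07 (SE), a level 2.43 times higher, with an edgeR adjusted p of 1.81e-06. XPO5, the exporter of microRNA precursors on chromosome 6 at 43522330 to 43576075, had 41.9, 47.8 and 48.3 CPM in DMSO and 78.1, 68.8 and 78.4 CPM in MPM-1. No libraries overlapped, and the log2 fold change was 0.71 ± 0.09 (SE; edgeR adjusted p = 0.000149). POLR1C, a polymerase subunit that overlaps XPO5 on the opposite strand, fell by 0.80 on the log2 scale. XPO1, or CRM1, the receptor of leucine-rich export signals, on chromosome 2 at 61477849 to 61538626, had 197, 224 and 221 CPM in DMSO and 146, 161 and 149 CPM in MPM-1. All treated libraries were lower, with a log2 fold change of -0.49 ± 0.08 (SE; edgeR adjusted p = 0.000663). CSE1L, which returns importin α to the cytoplasm, fell by 0.47, from 116, 129 and 133 CPM to 93.8, 95.0 and 85.1 CPM (edgeR adjusted p = 0.00108). XPO4, XPO6 and XPO7 were not called, at -0.12, -0.08 and -0.01 on the log2 scale.

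The exportins summed to 162 ± 9.31 FPKM in DMSO and 156 ± 2.67 FPKM in MPM-1 (SD, n = 3). These sums too lack TMM scaling, and a difference this small depends on the scaling. The make-up of the sum, which does not depend on it, differed. XPO1 was the first of the 7 in DMSO, with 27.5% ± 0.779 of the sum, and had 17.7% ± 1.40 in MPM-1. XPOT had 13.5%, 13.7% and 14.0% in the DMSO libraries and 32.1%, 29.9% and 31.1% in the MPM-1 libraries, where it ranked first. For both shares, also picked after the values were seen, the exact permutation p was 0.1 (0.136 adjusted over the same 15), again the smallest the design allows.

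Genes that work with the pore and its carriers but are no members were taken from 4 lists, with 76 of 77 genes in the table. In these lists 22 genes were higher, 22 lower and 32 not called by edgeR at an adjusted p under 0.05, with a median log2 fold change of -0.06, where 27.7% of all genes were higher and 28.8% lower. Of 13 pore-associated and Ran factors 4 rose and 3 fell. RANBP6, a relative of IPO5, fell by 1.25 on the log2 scale, RANBP1, which helps RAN hydrolyse GTP, by 0.55, and MCM3AP, the scaffold of the TREX-2 complex, by 0.38, while TMEM33 rose by 0.92, MAD1L1, a checkpoint protein held at the pore, by 0.73, and the mRNA export helicase DDX19B by 0.63. Of 25 mRNA and RNP export genes 6 rose and 9 fell. The helicase DDX39A fell by 1.01, SNUPN, the adaptor for snRNP import, by 0.81 and THOC3 of the THO complex by 0.78, while SARNP rose by 0.67, NMD3, the adaptor that hands the large ribosomal subunit to XPO1, by 0.45 and SDAD1 by 0.41. The libraries of SDAD1 overlapped between the groups, and its edgeR adjusted p was 0.0438, near the threshold.

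Of 16 genes of the SUMO cycle, in which RANGAP1 is a classic target, 5 rose and 2 fell. These counts too stand beside 27.7% higher and 28.8% lower over all genes. PIAS3 and SUMO2 were the falls, with log2 fold changes of -0.48 and -0.31, and SENP5, SUMO3 and SENP6 the largest rises, with 0.55, 0.46 and 0.42. Of 22 genes of the lamina and nuclear envelope 7 rose and 8 fell. LMNB1, lamin B1, went from 74.1 ± 7.33 CPM in DMSO to 14.3 ± 2.95 CPM in MPM-1 (SD, n = 3), a log2 fold change of -2.37, with an edgeR adjusted p of 2.2e-06. VRK1, a kinase of the envelope protein BANF1, and TMPO, a lamin-binding protein, fell by 1.29 and 0.97. SYNE1, or nesprin 1, rose by 2.08 from a low level, 1.85 ± 0.127 CPM in DMSO and 7.87 ± 2.29 CPM in MPM-1 (SD, n = 3), and ANKLE2 and EMD, or emerin, each rose by 0.78.

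**Figure D4:**
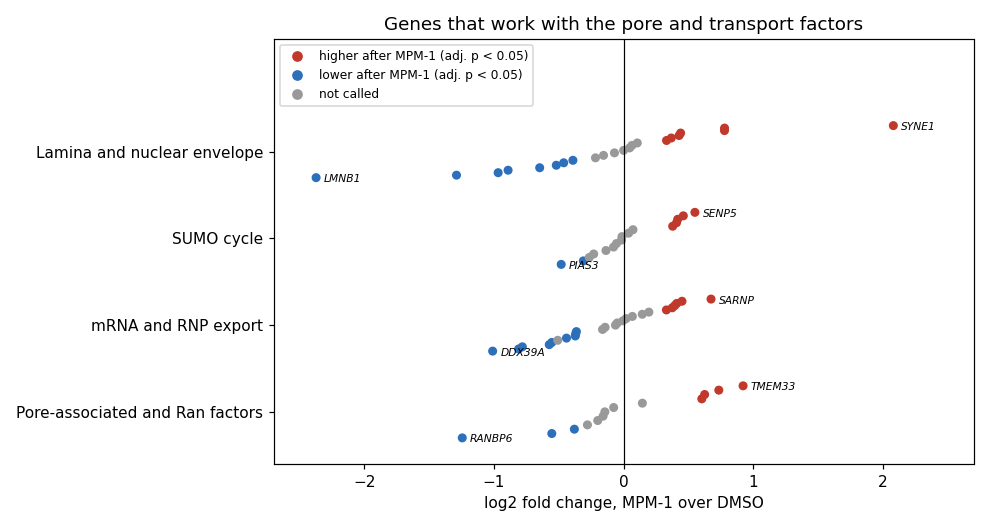
Log2 fold change of MPM-1 over DMSO for 76 genes in 4 lists, 1 point a gene, red for called higher, blue for called lower and grey for not called, with the lowest and highest of each list named. LMNB1, at -2.37, and SYNE1, at 2.08, lie furthest out.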

How the data were processed

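RNA of SW480 cells was sequenced in 3 DMSO and 3 MPM-1 libraries after 24 h, grouped by their titles. The authors deposited 1 table of whole-number counts per gene and of FPKM, which they scaled for transcript length and library size. It also holds the authors' own log2 fold change and FDR (an adjusted p-value) per gene, which were not used. The submitters' processing notes name HISAT2, DESeq2 and the mouse build mm10, although the identifiers are those of human genes. Versions, annotation and the strand setting of the counting are not given in the sources used here. Gene coordinates are from GENCODE release 29 on GRCh38. No gene fell to edgeR's filterByExpr, and each had at least 115 counts in all.

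Counts were tested with edgeR 4.0.16 in R 4.3.3 (TMM, quasi-likelihood fit, no covariates, Benjamini-Hochberg over 12982 genes), a gene being called at an adjusted p under 0.05. The SE is the size of the log2 fold change over the root of F. CPM used TMM library sizes. On simulated counts of this comparison over 12982 genes, 12 of 50 genes changed by 0.5, 95 of 100 changed by 1 and 50 of 50 changed by 2 on the log2 scale were recovered, 0 with the wrong sign, and 6 unchanged genes were called. The simulation gave every gene the common dispersion of 0.0231 and changed far fewer genes than were called in the data. Its recovery is therefore not that of the members. Alternatives used DESeq2 1.42.0, limma 3.58.1 on log2(FPKM + 1 or 0.1), other scalings and filters, a replicate block and each library left out. Values in every library were given for called members that moved by 0.5 or more on the log2 scale, at most 12 a direction, and for RAN, KPNB1, XPO1, POM121 and POM121C. Of the other lists the 3 largest called rises and falls were named. NUP155, SEH1L, NUP58, RCC1, KPNA1, CSE1L and IPO4 were given by library after their values were seen. The members and lists were chosen with earlier results of these data known. Members were matched by symbol, so that NUPL2, the older symbol of NUP42, is no member. Genes named as overlapping a member or as its copies were chosen for their place or sequence. Overlaps of other members, such as that of NUP43 with PCMT1 on the opposite strand, are not all named.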

Additional observations from a re-analysis of the deposited data

How the results depend on the processing

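With total counts alone 5 members were higher and 34 lower, where 19.9% of all genes were higher and 37.5% lower. There XPOT was the 1 higher member past the stricter threshold, and the member median was -0.34. With limma on log2(FPKM + 1), on log2(FPKM + 0.1) and on log2(FPKM + 1) without a filter, 5 members were higher in each and 32, 32 and 31 lower. Over all genes 20.5%, 20.4% and 19.2% were higher there and 35.4%, 35.2% and 35.6% lower. In each of these fits 1 higher member was past the stricter threshold, and 12 genes of the other lists were higher. The member medians were -0.32, -0.35 and -0.31, beside -0.13, -0.15 and -0.13 over all genes. The fitted value of RAN turned to -0.0609 with total counts alone, and that of KPNB1 to -0.0215 there and to -0.0212, -0.0219 and -0.0212 in the 3 FPKM fits, none of them called. In the same 4 fits POM121C was called lower, and the rises of SEH1L, NUP58, TPR and KPNA1 were not called. An adjusted p under 0.05 with a change of 1.5 times gave 5 higher and 9 lower members in place of 3 and 2. How many of all genes pass that threshold was not counted, so these counts have no share to stand beside. Leaving out 1 library gave 8 to 10 higher members, 22 to 26 lower members and 0 to 2 lower members past the stricter threshold, 0 without MPM-1 library 1 or 3 and 1 without DMSO library 1, with medians of -0.22 to -0.15. Over all genes 23.3% to 27.8% were higher in these fits and 23.7% to 27.5% lower. Same-numbered libraries had correlations of 0.02, 0.11 and -0.07, and differently numbered libraries -0.13 to 0.11. With 3 libraries a group, these cannot decide whether the libraries were paired. With the number as a replicate block in edgeR, 9 members were higher and 24 lower, where 26.8% of all genes were higher and 28.1% lower. The member median was -0.20. There NUP133 and NUP205 were no longer called (adjusted p = 0.0568 and 0.0629). Of the values of the 22 members given in full under the 16 alternatives, 341 kept their direction and side of the threshold. Depth limits KPNA7 most, with a mean of 36.7 counts a library, then NUP62CL with 236.5 and KPNA5 with 260. Changes of 0.5 were often missed in the simulated counts. Their single dispersion and few changed genes differ from the data, so that rate does not carry over to the members.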
